A study of Mus musculus with 7 samples.

Results

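Odontoblast and bone matrix genes are a set of 10 genes of mineralised tissue, Dspp, Dmp1, Ibsp, Bglap, Bglap2, Spp1, Mepe, Sp7, Phex and Runx2, chosen by symbol. They were found by joining the Ensembl IDs of the gene counts to mouse symbols, and all 10 are among the 25700 IDs. After a filter on low counts 14791 genes were tested, and 9 of the 10 genes were among them. Mepe was not.

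RNA sequencing was performed on the epithelium of lower incisors at birth (PN0, postnatal day 0) in 4 K14;Nogo-A pups, replicates 1, 2, 7 and 10, and 3 wild-type pups, replicates 3, 8 and 9. K14;Nogo-A pups carried K14cre (cre/+) and Nogo-A fl/fl alleles, and the others are labelled wt. Nogo-A is the long protein of the gene Rtn4, and the comparison asks how its deletion in the dental epithelium changes gene expression. The study had 4 pups per genotype, and 1 wild-type pup was not analysed here. Each library was 1 pup, with the epithelium of both lower incisors separated with Dispase and pooled, so every test is over pups. The control pups came from the same litters as mutants according to the paper, but which pups shared a litter is not stated in the labels. The K14 promoter drives Cre in epithelium, while odontoblasts and osteoblasts are mesenchymal cells in which this promoter is not expected to act.

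Dentin and bone are built in the same way. Odontoblasts and osteoblasts secrete a collagen matrix, and acidic phosphoproteins of the SIBLING family (Dspp, Dmp1, Ibsp, Spp1 and Mepe) help to control how mineral forms in it. Runx2 and its target Sp7 are transcription factors that commit cells to the osteoblast fate. The osteocalcin genes Bglap and Bglap2 are used late in it, and the peptidase Phex acts on SIBLING proteins and on phosphate balance. Dspp is mostly made by odontoblasts and for a short time by young ameloblasts, whereas Ibsp is best known from bone.

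The 4 K14;Nogo-A libraries held 20929207 to 29728532 counts each, the 3 wild-type ones 21021158 to 41219439, and no pair of libraries was alike within sampling noise. The 7 epithelial markers, among them Krt14, Krt5, Cdh1, Epcam and Trp63, were all detected, with a mean log2 CPM (CPM being counts scaled to the size of the library by TMM) of 9.33 to 9.47 in K14;Nogo-A pups, against 8.98 to 9.41 in wild-type. Mesenchyme was present too, and its 14 markers had a mean log2 CPM of 7.06 to 7.20 in K14;Nogo-A pups, against 7.57 to 7.82 in wild-type. For Rtn4 the range was 297 to 344 CPM in K14;Nogo-A pups, against 277 to 346 CPM in wild-type. A count over the whole gene includes the forms that keep their exons, so it checks no genotype. Y-linked transcripts (Uty, Kdm5d, Eif2s3y and Ddx3y) were found in K14;Nogo-A replicate 1 and in wild-type replicates 3 and 8, and no source used here gives the sex of the pups.

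The 5 SIBLING genes lie side by side on chromosome 5 of GRCm38, all on the plus strand. Dspp (ENSMUSG00000053268) is at chr5:104170712-104180127, Dmp1 (ENSMUSG00000029307) at chr5:104202613-104214102 and Ibsp (ENSMUSG00000029306) at chr5:104299171-104311469. Mepe (ENSMUSG00000053863) follows at chr5:104325329-104338611 and Spp1 (ENSMUSG00000029304) at chr5:104435118-104441050. Bglap (ENSMUSG00000074483, chr3:88383501-88384464) and Bglap2 (ENSMUSG00000074486, chr3:88377736-88378699) are neighbours on the minus strand of chromosome 3. The minus strand also holds Runx2 (ENSMUSG00000039153, chr17:44495987-44814797), Sp7 (ENSMUSG00000060284, chr15:102356606-102367182) and Phex (ENSMUSG00000057457, chrX:157162075-157415312). Exons of Spp1 overlap those of the unconfirmed gene Gm42793 on the same strand, which had 437 counts in all 7 libraries. Exons of Runx2 overlap those of the antisense gene Runx2os1, and without the strand setting of the counting, reads of the pair cannot be told apart.

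The coding sequences of Bglap and Bglap2 are shown because single reads cannot always be placed between them. Both are from GENCODE M21 transcripts, 288 bases long, and the capitals mark the 4 bases at which they differ.
Bglap: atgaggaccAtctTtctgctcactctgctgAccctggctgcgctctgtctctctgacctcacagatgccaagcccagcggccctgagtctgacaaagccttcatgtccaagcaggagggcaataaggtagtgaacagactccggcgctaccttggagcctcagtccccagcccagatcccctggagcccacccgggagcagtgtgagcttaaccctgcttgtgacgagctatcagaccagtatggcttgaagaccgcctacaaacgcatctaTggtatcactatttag
Bglap2: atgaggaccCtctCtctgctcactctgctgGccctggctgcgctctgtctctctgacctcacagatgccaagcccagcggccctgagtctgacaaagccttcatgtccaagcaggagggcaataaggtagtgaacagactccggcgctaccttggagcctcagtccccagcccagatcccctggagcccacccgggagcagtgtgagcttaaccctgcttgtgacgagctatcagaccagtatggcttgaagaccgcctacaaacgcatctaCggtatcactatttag
The identity was 98.6%, and the longest stretch without a difference was 241 bases. Of all windows of 1 read length in the annotated transcripts, 28.7% of those of Bglap were also in Bglap2 and 40.9% of those of Bglap2 were also in Bglap. Levels of either gene alone are therefore uncertain, although their counts kept a nearly fixed ratio, with a 1.42-fold range over the 7 libraries.

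The 250 bases before the start of transcription were read for the 7 of the 10 genes that RefSeq promoters of GRCm38.p6 hold (all but Dspp, Bglap2 and Sp7), 9 windows in all. These starts are those of RefSeq, and some windows, among them those of Ibsp and Runx2, reach into the gene as placed above. The letters ACCACA, the core that Runx factors recognise, were searched on both strands. They were found in 5 of the 7 genes, Bglap, Dmp1, Mepe, Spp1 and Runx2, and in 4614 of all 32851 promoters, some of which belong to the same gene. 3 windows are shown, with the match in capitals, for an osteocalcin gene, for Spp1 and for Ibsp, which had none. They are at chr3:88384467-88384716 (minus strand), chr5:104434861-104435110 (plus) and chr5:104299037-104299286 (plus).
Bglap: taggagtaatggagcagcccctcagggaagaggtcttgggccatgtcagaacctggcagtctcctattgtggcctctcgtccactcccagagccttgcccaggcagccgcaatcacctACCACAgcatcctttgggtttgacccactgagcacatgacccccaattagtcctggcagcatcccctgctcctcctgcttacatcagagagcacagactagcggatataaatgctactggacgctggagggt
Spp1: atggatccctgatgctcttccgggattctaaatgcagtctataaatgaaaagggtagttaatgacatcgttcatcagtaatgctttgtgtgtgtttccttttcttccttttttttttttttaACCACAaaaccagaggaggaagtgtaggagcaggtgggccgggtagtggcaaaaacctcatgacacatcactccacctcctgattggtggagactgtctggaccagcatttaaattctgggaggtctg
Ibsp: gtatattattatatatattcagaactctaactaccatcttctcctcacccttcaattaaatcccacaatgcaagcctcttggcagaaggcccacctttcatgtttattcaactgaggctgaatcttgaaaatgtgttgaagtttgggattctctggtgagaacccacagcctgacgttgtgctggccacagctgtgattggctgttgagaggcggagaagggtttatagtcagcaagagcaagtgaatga
The match began at position -132 in Bglap and at -128 in Spp1, counted back from the start of transcription. The other motifs searched on both strands were AACCACA, which overlaps ACCACA and was in 3 of the 7 genes and 4.40% of promoters, TAATTA, in 2 genes and 4.84%, and CANNTG, in all 7 genes and 66.2%. A match is a stretch of letters and not a binding site.

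Together the 10 genes took 0.594%, 0.188%, 0.212% and 0.393% of the counts in K14;Nogo-A replicates 1, 2, 7 and 10, against 0.682%, 0.457% and 0.662% in wild-type replicates 3, 8 and 9. Levels between genes were compared as CPM per kb of exon, with all annotated exons of a gene merged. Dspp was the most abundant, with 577 ± 283 CPM per kb in K14;Nogo-A and 973 ± 260 CPM per kb in wild-type (SD, n = 4 and 3 pups), a level above that of 99.8% of the genes tested. Bglap followed with 270 ± 260 CPM per kb in K14;Nogo-A and 416 ± 128 CPM per kb in wild-type. Dmp1 had 77.5 ± 68.6 CPM per kb in K14;Nogo-A, against 156 ± 17.8 in wild-type, and Bglap2 had 93.6 ± 93.0 CPM per kb in K14;Nogo-A, against 145 ± 34.5 in wild-type. Ibsp had 64.9 ± 26.4 CPM per kb in K14;Nogo-A, against 103 ± 50.8 in wild-type. Spp1, Sp7 and Phex averaged 20.9 to 38.8 CPM per kb in K14;Nogo-A pups, against 44.3 to 51.4 CPM per kb in wild-type. Runx2 had 7.63 ± 1.25 CPM per kb in K14;Nogo-A and 10.6 ± 0.881 CPM per kb in wild-type. In wild-type pups the ranges of Dspp and Bglap, of Bglap and Dmp1, and of Phex and Runx2 did not overlap, whereas each gene from Dmp1 to Phex overlapped its neighbour in the order Dmp1, Bglap2, Ibsp, Spp1, Sp7, Phex.

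**Figure D1:**
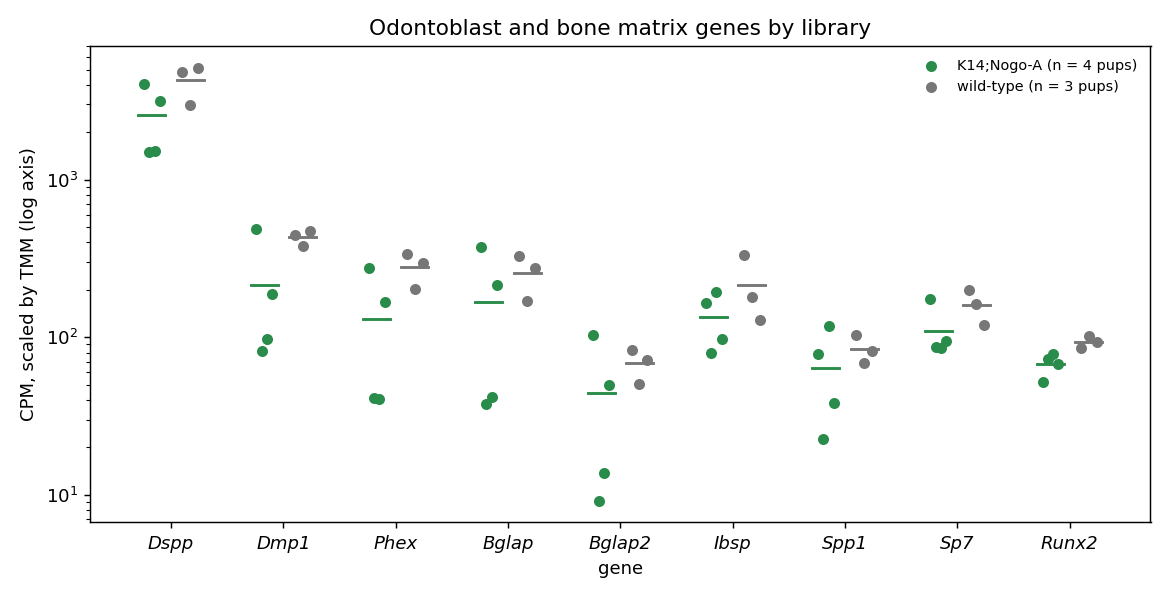
TMM-scaled CPM (log axis) of the 9 genes tested in each of the 4 K14;Nogo-A (green, left of each pair) and 3 wild-type (grey) pups, with the group mean as a line. Only the Runx2 groups do not overlap, and the K14;Nogo-A points of Dmp1, Phex, Bglap and Bglap2 are the most spread.

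Transcripts of the 2 dentin phosphoproteins averaged less in K14;Nogo-A than in wild-type pups, without passing the test. Dspp, whose product is cut into dentin sialoprotein and dentin phosphoprotein, had 4024, 1499, 1524 and 3176 CPM in K14;Nogo-A replicates 1, 2, 7 and 10, against 4801, 2996 and 5142 CPM in wild-type replicates 3, 8 and 9. K14;Nogo-A replicates 2 and 7 lay below all wild-type pups, while replicates 1 and 10 lay inside their range. The log2 fold change (K14;Nogo-A over wild-type, as throughout) was -0.76 with a standard error of 0.41 (adjusted p = 0.48, edgeR's quasi-likelihood test with Benjamini-Hochberg adjustment over all genes tested). Dmp1, a matrix phosphoprotein of odontoblasts and osteocytes, had 490, 81.6, 97.7 and 187 CPM in K14;Nogo-A, against 443, 377 and 474 CPM in wild-type. Here 3 K14;Nogo-A pups were below all wild-type pups and replicate 1 was above them all. The log2 fold change of Dmp1 was -1.01 ± 0.69 (SE, edgeR adjusted p = 0.585). In whole tissue, fewer cells of a type and less RNA per cell cannot be told apart, which holds for every level given here.

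Phex and the osteocalcin genes were, like Dmp1, low in K14;Nogo-A replicates 2 and 7 and at or above wild-type levels in replicate 1. Phex had 277, 41.4, 40.4 and 167 CPM in K14;Nogo-A, against 336, 202 and 298 CPM in wild-type, a log2 fold change of -1.09 ± 0.79 (SE, edgeR adjusted p = 0.617). All K14;Nogo-A pups but replicate 1 lay below the wild-type range. Bglap, for the bone Gla protein osteocalcin, had 374, 37.7, 41.6 and 214 CPM in K14;Nogo-A, against 326, 170 and 276 CPM in wild-type. Replicates 2 and 7 were far below every wild-type pup, replicate 10 was within the wild-type range and replicate 1 was above it. Bglap2 had 104, 9.19, 13.7 and 49.4 CPM in K14;Nogo-A, against 82.8, 50.8 and 71.8 CPM in wild-type. The log2 fold changes were -0.63 ± 0.93 for Bglap and -0.64 ± 0.89 for Bglap2 (SE, edgeR adjusted p = 0.821 and 0.808), so the difference was smaller than the spread among K14;Nogo-A pups. With Bglap, Bglap2 and Bglap3 counted as 1 gene the log2 fold change was -0.63.

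Ibsp and Spp1 were arranged in another way. Ibsp, bone sialoprotein, had 166, 79.9, 194 and 96.8 CPM in K14;Nogo-A, against 331, 180 and 129 CPM in wild-type. Spp1, osteopontin, had 77.7, 22.5, 118 and 38.1 CPM in K14;Nogo-A, against 104, 68.7 and 81.7 CPM in wild-type. Among K14;Nogo-A pups both were highest in replicate 7, in which Dspp, Dmp1, Phex, Bglap and Bglap2 were low, and lowest in replicate 2. The log2 fold changes were -0.67 ± 0.45 for Ibsp and -0.40 ± 0.59 for Spp1 (SE, edgeR adjusted p = 0.576 and 0.816). Spp1 is also made by osteoclasts and macrophages, and the summed level of 8 osteoclast markers was 311, 619, 1039 and 529 CPM in K14;Nogo-A, against 641, 989 and 687 CPM in wild-type. Their summed level, though not that of each marker, was highest in K14;Nogo-A replicate 7. The summed level of 8 macrophage markers was 40.4, 45.0, 76.9 and 58.4 CPM in K14;Nogo-A, against 58.3, 91.8 and 59.4 CPM in wild-type. A fold change below 0 was found for 8 of 8, and for 51.5% of all genes tested. Among K14;Nogo-A pups the summed level of these markers too was highest in replicate 7. The part of either cell type in these values was not tested. Mepe, a SIBLING protein of osteocytes and odontoblasts, had 0, 0, 18 and 0 counts in K14;Nogo-A and 7, 3 and 2 counts in wild-type. It was near the limit of detection, where a count of 0 allows a level of up to 3 counts, or 0.114 to 0.138 CPM in those K14;Nogo-A libraries.

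**Figure D2:**
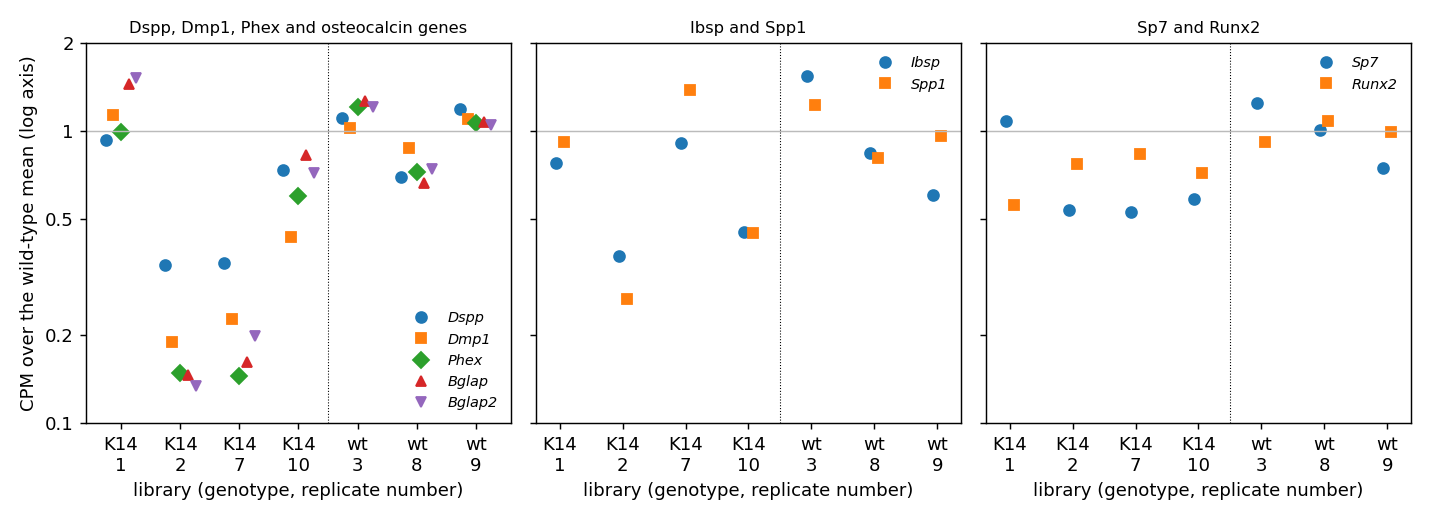
CPM of each gene divided by its wild-type mean (log axis) in the 4 K14;Nogo-A (K14, left of the dotted line) and 3 wild-type (wt) libraries, by replicate number. The 5 genes at left are low in K14;Nogo-A replicates 2 and 7, Ibsp and Spp1 are low in replicates 2 and 10, and Runx2 is below every wild-type value in all 4.

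The regulators varied least, with a 1.95-fold range over the 7 libraries for Runx2 and 2.36-fold for Sp7, where the other genes tested had 3.43-fold (Dspp) to 11.3-fold (Bglap2). Runx2, the factor required for osteoblasts to form, had 52.2, 72.4, 77.9 and 67.2 CPM in K14;Nogo-A, against 86.0, 102 and 93.2 CPM in wild-type. All 4 K14;Nogo-A pups lay below all 3 wild-type pups, a pattern found in 6.09% of the genes tested (the opposite one was found in 5.43%), and replicate 1, which had the highest Dmp1 and Bglap, had the lowest Runx2. The log2 fold change of Runx2 was -0.47 ± 0.13 (SE), with an unadjusted p of 0.00307 and an adjusted p of 0.218 from edgeR's quasi-likelihood test. Sp7, osterix, had 174, 86.5, 85.1 and 94.9 CPM in K14;Nogo-A, against 201, 163 and 120 CPM in wild-type. Its level in replicate 1 was within the wild-type range and in the other 3 K14;Nogo-A pups below it, with a log2 fold change of -0.55 ± 0.30 (SE, edgeR adjusted p = 0.475).

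None of the 9 genes tested passed an adjusted p under 0.05 in edgeR's quasi-likelihood test, where 0.0338% of all genes were lower and 0% higher in K14;Nogo-A. The count was also 0 with edgeR's likelihood-ratio test, DESeq2 and limma-voom, where the adjusted p of Runx2 was 0.0656, 0.0502 and 0.183. At an unadjusted p under 0.05 in the quasi-likelihood test the count was 1 gene, Runx2, against 6.66% of all genes for the lower and 6.25% for the higher direction. None passed the thresholds of the study, an unadjusted p up to 0.05 together with a log2 fold change of 0.5 or more in either direction, which 2.74% of all genes passed in the lower and 2.02% in the higher direction. The fold change was below 0 for 9 of 9 genes, with a median of -0.64, and for 51.5% of all genes tested, whose median was -0.01. Genes that move together across libraries are not separate observations, so this count is a description.

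Leaving out 1 library moved several of these values. Without K14;Nogo-A replicate 1 Dmp1 was lower with a log2 fold change of -1.82 ± 0.30 (SE, edgeR adjusted p = 0.037) and Sp7 with -0.86 ± 0.16 (adjusted p = 0.031), both past the threshold, as were 0.839% of all genes in the lower and 0.657% in the higher direction. Dspp had -1.06 ± 0.33 (edgeR adjusted p = 0.184), and these 3 genes passed the study's thresholds, as did 3.69% of all genes in the lower and 3.07% in the higher direction. Phex had -1.75 ± 0.71, Bglap -1.40 ± 0.86 and Bglap2 -1.50 ± 0.73 (SE), with edgeR adjusted p of 0.367, 0.548 and 0.44. Runx2 came closer to 0, at -0.37 ± 0.10 (SE, edgeR adjusted p = 0.099). Leaving out other libraries brought some genes closer to 0. Without K14;Nogo-A replicate 2 the log2 fold change was -0.30 for Bglap, -0.30 for Bglap2 and -0.12 for Spp1. Without K14;Nogo-A replicate 7 it was -0.30 for Bglap and -0.34 for Bglap2, and Spp1 moved away from 0, to -0.88. Without K14;Nogo-A replicate 10 it was -0.22 for Spp1. Without wild-type replicate 3 it was -0.20 for Ibsp, -0.23 for Spp1 and -0.36 for Sp7. None of these fits called a gene of the set, and no reason for leaving out a pup is given in the sources used here.

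**Figure D3:**
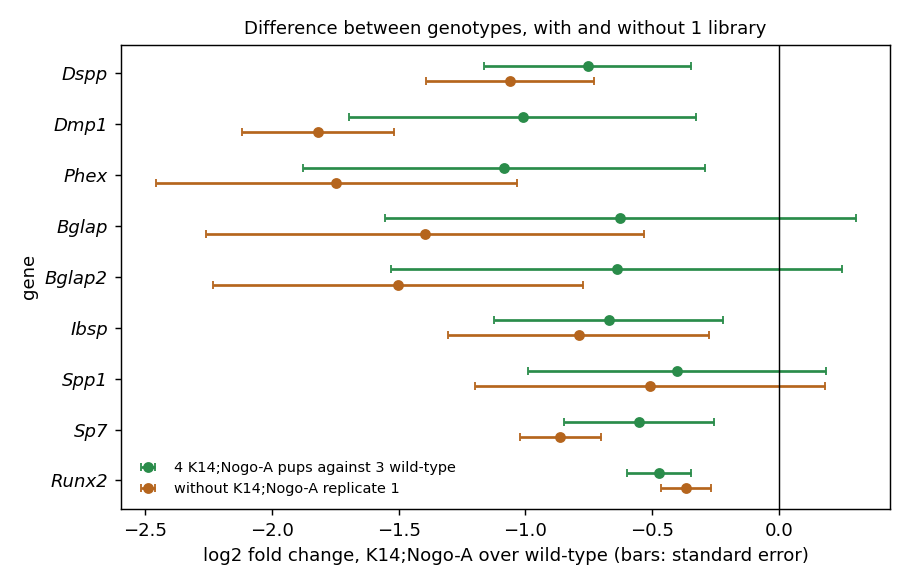
Log2 fold change, K14;Nogo-A over wild-type, for 9 genes, with all 7 libraries (green) and without K14;Nogo-A replicate 1 (brown). Bars are standard errors derived from edgeR's F statistic. All values are below 0, and those of Dmp1, Phex, Bglap and Bglap2 move furthest from 0 without that library.

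Replicate 1 is also the only K14;Nogo-A pup with Y-linked transcripts. Among libraries with them (K14;Nogo-A replicate 1 against wild-type replicates 3 and 8), the difference in mean log2 CPM was 0.09 for Dspp, 0.26 for Dmp1, 0.67 for Bglap and 0.09 for Phex. Among libraries without them (K14;Nogo-A replicates 2, 7 and 10 against wild-type replicate 9), it was -1.41 for Dspp, -2.05 for Dmp1, -1.99 for Bglap and -2.19 for Phex. The difference of Runx2 was below 0 on both sides, -0.84 with and -0.36 without Y-linked transcripts, as were those of Ibsp (-0.56 with and -0.18 without them), Spp1 (-0.12 with and -0.81 without) and Sp7 (-0.05 with and -0.44 without). With 1 library in an arm of each side these values have no test.

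Levels of other cell types also differed between genotypes or between pups, and their part in the result was not tested. All 14 mesenchyme markers had a fold change below 0, against 51.5% of all genes tested. In 8 of them every K14;Nogo-A pup lay below every wild-type pup, a pattern held by 6.09% of all genes. By edgeR's quasi-likelihood test 11 were lower before adjustment (p under 0.05, against 6.66% of all genes), and 0 stayed below 0.05 after it. The ranges of the mean log2 CPM of the 14 markers, given above, did not overlap. Among K14;Nogo-A replicates 1, 2, 7 and 10 that mean was nearly level, at 7.06, 7.09, 7.20 and 7.17, and it was lowest in replicate 1, the K14;Nogo-A pup with the highest Dspp, Dmp1, Phex, Bglap and Bglap2. The mean log2 CPM of 8 dental papilla markers, genes of the mesenchyme from which odontoblasts arise, was 4.61, 4.52, 4.44 and 4.52 in K14;Nogo-A, against 4.78, 4.67 and 4.70 in wild-type, without overlap. Singly, 6 of them had a fold change below 0 and 2 above it. For 2 of the 8 all K14;Nogo-A pups lay below all wild-type pups, against 6.09% of all genes. The summed level of 7 ameloblast markers was 31399, 103577, 101660 and 79091 CPM in K14;Nogo-A, against 31619, 12759 and 40506 CPM in wild-type. It was highest in K14;Nogo-A replicates 2 and 7, the pups with the lowest Dspp, and in replicate 1 it was at the level of wild-type replicate 3. The mean log2 CPM of 8 osteoblast markers was 5.80 to 6.61 in K14;Nogo-A pups, against 6.53 to 6.61 in wild-type. Cartilage markers had a mean log2 CPM of -0.29 to 0.45 in K14;Nogo-A pups, against 0.33 to 0.46 in wild-type, and the summed level of 6 muscle markers was 6.23 to 24.8 CPM in K14;Nogo-A pups, against 10.1 to 16.1 CPM in wild-type. Of the 5 muscle markers tested 5 had a fold change above 0, as had 7178 of all 14791 genes tested. Of these markers 0 passed an adjusted p under 0.05, and 1 was higher at the study's thresholds, as were 2.02% of all genes.

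Dentin was set against bone by the ratio of Dspp to bone matrix genes within each library, which does not depend on library scaling. Dspp over Ibsp was 24.2, 18.8, 7.86 and 32.8 in K14;Nogo-A replicates 1, 2, 7 and 10, against 14.5, 16.7 and 39.7 in wild-type replicates 3, 8 and 9. K14;Nogo-A replicate 7 was the lowest and wild-type replicate 9 the highest, and the difference in mean log2 ratio was -0.20. Dspp over the sum of Bglap and Bglap2 was 8.43, 32.0, 27.6 and 12.1 in K14;Nogo-A, against 11.8, 13.6 and 14.8 in wild-type, with a difference of 0.38. Here K14;Nogo-A pups were on both sides of the narrow wild-type range, replicates 2 and 7 above it and replicate 1 below it. Dspp over Spp1 was 51.8, 66.5, 12.9 and 83.4 in K14;Nogo-A, against 46.2, 43.6 and 62.9 in wild-type, with a difference of -0.19. Each of the 3 ratios overlapped between genotypes and differed by less than the spread among pups, and no test was made of them.

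The bone matrix genes did not keep a fixed ratio to each other. The sum of Bglap and Bglap2 over Ibsp was 2.88, 0.587, 0.285 and 2.72 in K14;Nogo-A, against 1.23, 1.23 and 2.68 in wild-type, a 10.1-fold range over the 7 libraries. By contrast Dspp over Dmp1 had a 2.31-fold range, Dspp over Phex 2.64-fold and Ibsp over Spp1 2.24-fold. Dspp over Col1a1, the main collagen chain of dentin and bone, had a 1.48-fold range, whereas Ibsp over Col1a1 had a 5.76-fold range. Dspp over Ibsp had a 5.05-fold range, over Spp1 6.44-fold and over the sum of Bglap and Bglap2 3.80-fold. Over these libraries Dspp thus kept closer to Col1a1, Dmp1 and Phex than to Ibsp or Spp1, with the osteocalcin genes in between.

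**Figure D4:**
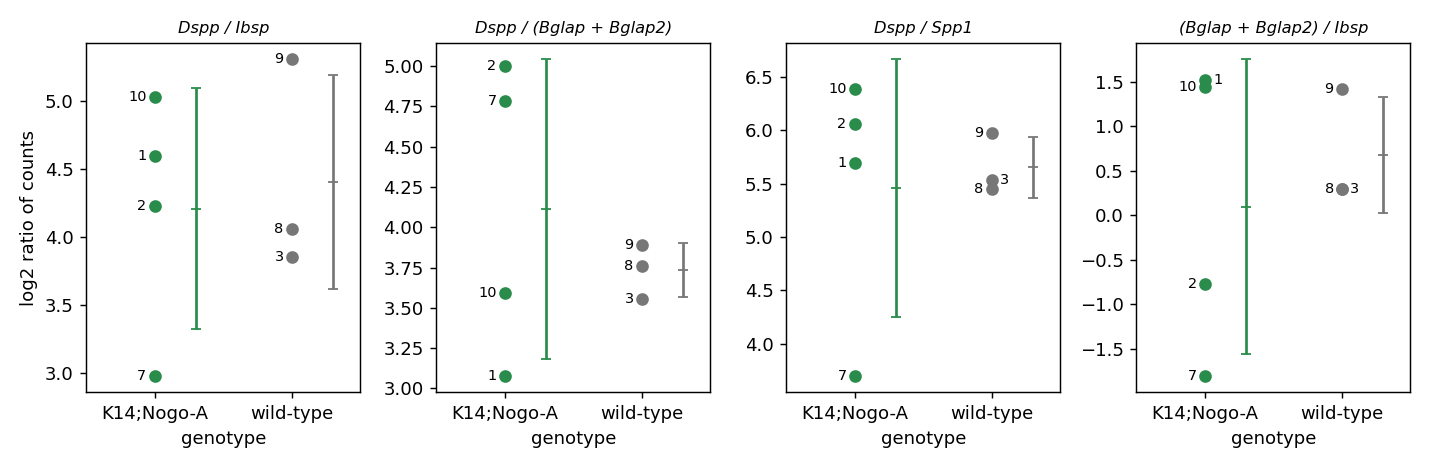
Log2 ratio of counts within each library, K14;Nogo-A (green) left of wild-type (grey), with replicate numbers beside the points and mean ± SD bars (n = 4 and 3 pups). Groups overlap in all 4 panels, and the K14;Nogo-A points are spread more widely than the wild-type points.

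Other genes of the matrix were taken from 4 lists, of which 43 of 45 genes were tested. Of 13 matrix genes 0 passed the adjusted threshold. At an unadjusted p under 0.05 6 were different, all lower, against 6.66% of all genes in that direction. By the study's thresholds 5 of them were lower and none was higher, against 2.74% and 2.02% of all genes. Their median log2 fold change was -0.61, against -0.01 for all genes. The smallest p were those of Col5a1 and Col5a2, chains of the collagen that sets fibril width, with log2 fold changes of -0.57 ± 0.09 and -0.61 ± 0.14 (SE, edgeR adjusted p = 0.0929 and 0.184), and of the proteoglycan Bgn, with -0.69 ± 0.23 (adjusted p = 0.286). The likelihood-ratio test of edgeR called both collagen genes (adjusted p = 0.000948 for Col5a1 and 0.0254 for Col5a2), as did DESeq2 (4.3e-06 and 0.01). Limma-voom called neither (adjusted p = 0.0942 and 0.159). Of all 14791 genes tested, the likelihood-ratio test, DESeq2 and limma-voom called 108, 169 and 4 lower, against 5 with the quasi-likelihood test. Without K14;Nogo-A replicate 1 Col5a1, Col5a2 and Bgn were called by the quasi-likelihood test of edgeR (adjusted p = 0.0238, 0.021 and 0.0453). Both collagen genes were lower in all 4 K14;Nogo-A pups than in all wild-type pups, as were 6.09% of all genes tested. Col1a1 had 23012, 6192, 6469 and 12554 CPM in K14;Nogo-A, against 28134, 15656 and 24874 CPM in wild-type, the order of pups seen for Dspp among K14;Nogo-A.

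Of 12 regulators of bone and tooth cells 11 had a fold change below 0, with a median of -0.20, and 1 passed the adjusted threshold, in the lower direction. Over all genes tested 51.5% were below 0 and 0.0338% were lower at that threshold. Dlx6 and Msx1, homeobox genes of the jaw mesenchyme, had -0.41 ± 0.15 and -0.33 ± 0.13 (SE, edgeR adjusted p = 0.292 and 0.319).

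Genes of mineral formation and transport had no common direction. Of 10 tested, 6 were below 0, against 51.5% of all genes, the median was -0.12 and 0 passed the adjusted threshold. At an unadjusted p under 0.05 2 were lower and 1 higher, against 6.66% and 6.25% of all genes. Slc20a1, a sodium phosphate transporter, had a log2 fold change of 0.59 ± 0.18 (SE, edgeR adjusted p = 0.253), which was 0.73 ± 0.13 without K14;Nogo-A replicate 1 (adjusted p = 0.0242). Enpp1, which makes the mineral inhibitor pyrophosphate, had -0.55 ± 0.17 (adjusted p = 0.262). Smpd3, a sphingomyelinase needed for mineralisation, had -0.41 ± 0.16 (SE, edgeR adjusted p = 0.309).

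Of 8 hormone and signal genes tested 7 were below 0, against 51.5% of all genes, with a median of -0.43, and 0 passed the adjusted threshold. At an unadjusted p under 0.05 1, Pth1r, was lower, against 6.66% of all genes. Pth1r, the parathyroid hormone receptor, had a log2 fold change of -0.43 ± 0.18 (SE, edgeR adjusted p = 0.36), and Tnfsf11, the osteoclast factor RANKL, -0.57 ± 0.29 (adjusted p = 0.435). Sost, the Wnt inhibitor sclerostin of osteocytes, had 27.8, 1.64, 3.80 and 4.69 CPM in K14;Nogo-A, against 27.2, 13.3 and 19.0 CPM in wild-type. As with Dmp1, replicate 1 stood at wild-type levels and the other 3 pups below all wild-type pups, and the log2 fold change was -1.08 ± 0.99 (SE, edgeR adjusted p = 0.692). Without K14;Nogo-A replicate 1 it was -2.54 ± 0.38 (adjusted p = 0.0215).

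Genes most like 3 of the members were ranked by Pearson's r of log2 CPM over the 7 libraries among 10000 genes with a mean of at least 10 CPM. For Dspp they were Gm45208, Tmf1 and Loxl4, with r of 0.994, 0.992 and 0.99. For Ibsp they were Agpat4, Bnip3l and Pth1r, with r of 0.962, 0.947 and 0.939. For Runx2 they were Akap2, Sulf2 and Pakap, with r of 0.992, 0.988 and 0.988, and Akap2 and Pakap are on the same chromosome, 4. The points share genotype, dissection and depth, and the ranking was over few libraries and many genes.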

How the data were processed

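RNA sequencing counts of 7 libraries (4 K14;Nogo-A and 3 wild-type pups) were grouped by their sample labels. The authors deposited unnormalised counts, 1 value per Ensembl gene, from poly(A) RNA. Per the submitters' processing notes and the paper's methods, bcl2fastq 2.19 called the bases, Trimmomatic or fastp (the sources differ) trimmed adapters, and STAR 2.7.1 placed the reads on GRCm38 (Ensembl release 91 annotation in the methods), after which featureCounts counted them. The strand setting and the handling of reads that fit several genes are not given in the sources used here, and either could move counts between Bglap and Bglap2 or between overlapping genes.

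IDs were joined to GENCODE M21, and 25664 of 25700 had a symbol. The remaining 36 took up 0.0348% of counts. A minimum of 10 counts in 50% or more of a genotype's libraries was required. Tests used edgeR 4.0.16 in R 4.3.3 (TMM, robust quasi-likelihood test, no covariate, Benjamini-Hochberg adjustment). Standard errors were derived from that test, as the size of the log2 fold change over the square root of its F statistic. The log2 CPM used a prior count of 2. The biological coefficient of variation was 15.2%. Depth was 20929207 to 41219439 counts. The study's threshold of 0.5 was read as a log2 fold change.

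Alternatives were scaling by RLE or upper quartile, the likelihood-ratio test of edgeR, DESeq2 1.42.0, voom of limma 3.58.1, other filters, each library left out, covariates for Y-linked and mesenchyme genes, and osteocalcin genes summed. Fits were tested on simulated data. Named genes are the 10 members, up to 3 per other list by p, and the 3 most like Dspp, Ibsp and Runx2. A gene taken by this rule is not reported here. Col1a1 was singled out after its values were seen. Members, lists and rules were chosen with earlier results of these data known.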

Additional observations from a re-analysis of the deposited data

Results flagged for a closer look

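In groups of 4 to 10 libraries a value was marked when its gap to the nearest other was too large a part of the group's range (Dixon's 95% critical value), which chance does for about 1 in 20 groups. Of 20 measures over the 4 K14;Nogo-A pups, 2 were marked. Mepe had 0.628 CPM in K14;Nogo-A replicate 7, where the other 3 pups had 0 counts. With those values the rule marks any level above 0, so this mark says nothing of its size. Sp7 had 174 CPM in K14;Nogo-A replicate 1, where the other 3 lay between 85.1 and 94.9 CPM. No cause of either value was tested.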

How the results depend on the processing

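No paired analysis was possible because the labels give no litter and the genotypes share no replicate numbers. Of 145 alternative fits of the 9 genes, 144 gave a fold change below 0, and 2 passed the threshold, Dmp1 and Sp7 without K14;Nogo-A replicate 1. The exception was Runx2, 0.17 on the log2 scale with the mesenchyme covariate, whose values do not overlap between genotypes. With it Dspp was at -2.61, Dmp1 -3.17, Phex -3.51, Bglap -3.50, Bglap2 -3.28, Sp7 -1.23 and Spp1 -0.18, none past the threshold. There Smpd3 (0.16), Dlx6 (0.10), Pth1r (0.12) and Tnfsf11 (0.81) also turned positive. Fold changes of the other named genes under these alternatives were added after seeing the data. Of the 10 genes, those lower at the study's thresholds (0 with all libraries) were 1 with the Y-linked covariate and 0 to 3 with a library left out, 1 (Runx2 each time) when K14;Nogo-A replicate 2 or 7, or else wild-type replicate 3, was dropped and 3 without K14;Nogo-A replicate 1. Those lower at an adjusted p under 0.05 were 0 to 2 and those higher 0 throughout. Of the 43 other genes, those lower at an adjusted p under 0.05 (1) were 3 with the likelihood-ratio test, 3 with DESeq2, 2 with no filter, 0 with the mesenchyme covariate and 0 to 8 with a library left out (8 when K14;Nogo-A replicate 1 was dropped, and 3 for wild-type replicate 9), and those higher (0) were 0 to 1. Those lower at the study's thresholds (7) were 5 to 17 and those higher (1) 0 to 2 with a library left out, 17 and 2 without K14;Nogo-A replicate 1, and those higher were 0 with either covariate. Over all genes the adjusted calls, 5 lower and 0 higher, were 108 and 58 with the likelihood-ratio test, 169 and 148 with DESeq2, 20 and 1 with no filter, 9 and 0 with the Y-linked covariate, 0 and 0 with the mesenchyme covariate, 124 and 97 without K14;Nogo-A replicate 1 and 48 and 45 without wild-type replicate 9. With a library left out the difference in log2 ratio lay between -0.47 and 0.25 for Dspp over Ibsp, 0.08 and 0.72 for Dspp over Bglap plus Bglap2, and -0.50 and 0.39 for Dspp over Spp1, so the sign of the first and last depends on single libraries. The causes were not tested. Of the 10 genes, Mepe was near the limit of detection at the depth of these libraries.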
